A study of Mus musculus with 6 samples.

Results

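The corticosteroid receptors and 8 genes that glucocorticoids are known to induce were followed through RNA-seq libraries of mouse brain. The 10 genes were chosen by symbol: Nr3c1, Nr3c2, Fkbp5, Tsc22d3, Sgk1, Zbtb16, Ddit4, Mt1, Mt2 and Pdk4. All 10 were among the 23057 symbols of the expression table, and all 10 passed the filter that left 14585 genes for testing. The mice were of strain C57BL/6. The irradiated group, 3 libraries, came from mice given 10 Gy of X-rays to the head through a collimator with a field 10.08 mm across, and the control group, 3 libraries, from mock-irradiated mice. All brains were taken 30 days later, after perfusion with saline, and are labelled as whole brain. Each library is called by its group and replicate number. The labels give no age, sex or hour of collection. Xist, the RNA of the inactive X chromosome, was at 10.07 to 48.6 FPKM in the 6 libraries, while Uty and Kdm5d, on the Y chromosome, were listed at 0 in all of them.

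Corticosterone, the main glucocorticoid of mice, crosses into the brain and binds a pair of nuclear receptors. The mineralocorticoid receptor, encoded by Nr3c2, binds it tightly and is occupied at resting hormone levels, while the glucocorticoid receptor, encoded by Nr3c1, fills when hormone peaks with the daily rhythm or with stress. Both receptors then bind DNA at glucocorticoid response elements and raise or lower transcription nearby. Fkbp5, Tsc22d3, Sgk1, Zbtb16, Ddit4, Mt1, Mt2 and Pdk4 are widely used readouts of that response, although each also answers to other signals.

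None of the 10 genes passed the test between irradiated and mock brains. The test was limma on log2(FPKM + 0.5), where FPKM is the count of fragments scaled to transcript length and library size, and a call needed an adjusted p under 0.05 over all genes tested. Of all tested genes, 7.72% were called, 3.48% higher and 4.24% lower. An unadjusted p under 0.05 was met by 2 of the 10 genes, both higher, and by 0 lower genes (11.7% and 13.9% of all tested genes). Libraries of the groups did not overlap for 2 genes, Fkbp5 and Ddit4, both with every irradiated library above every mock library, which was so for 13.7% of all tested genes (31.5% did not overlap in either direction). With 3 libraries against 3, an exact permutation test of a single gene cannot give a p below 0.1, so the p-values given for genes come from limma. The labels number the replicates without saying that each is a separate mouse, so the p-values measure only the spread between these 6 libraries, which may be technical.

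By level, in FPKM and so per length of transcript, the genes fell into 3 tiers. Mt1 (mean of 6 libraries 1194) and Mt2 (916) stood at the top. Tsc22d3 (81.4), Sgk1 (68.2) and Ddit4 (62.8) came next, followed by Fkbp5 (20.5). Nr3c1 (8.68), Zbtb16 (6.10), Nr3c2 (5.90) and Pdk4 (5.00) were lowest. Within each of these tiers the ranges over the libraries overlapped. The genes were measured in the same libraries, and the order of neighbours within a library was not tested. Fkbp5 lay below the lowest library of Ddit4 in every library and overlapped with Nr3c1 only through mock 1.

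**Figure D1:**
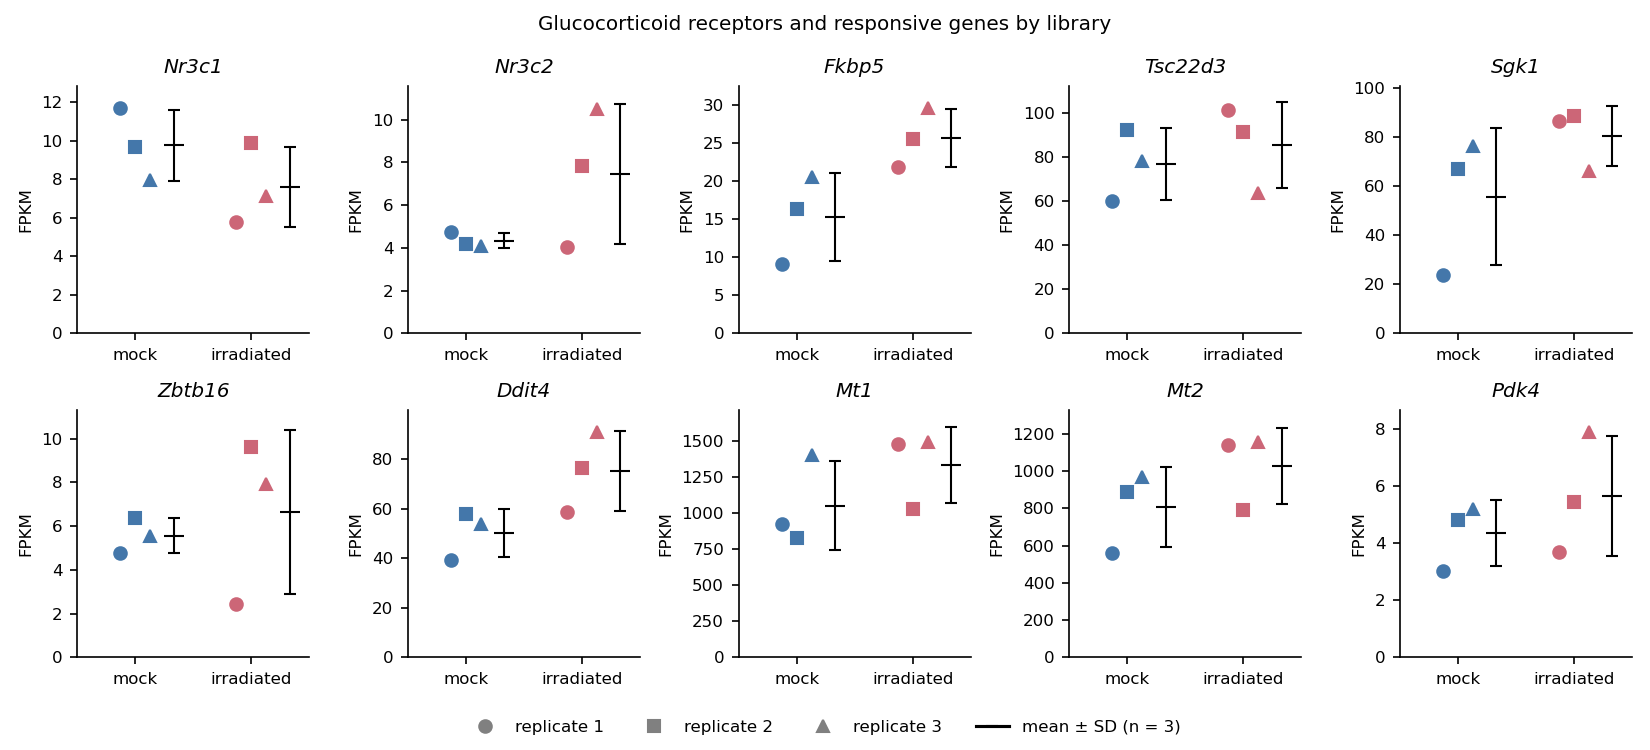
FPKM of each of the 10 genes (vertical axes, linear, from 0) in the mock and the irradiated libraries. Symbols mark the replicates and black bars the mean ± SD of 3 libraries. Only for Fkbp5 and Ddit4 did all irradiated libraries lie above all mock libraries.

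The receptors differed between the groups in opposite directions, and neither difference passed the test. Nr3c1 (chromosome 18, 39410545 to 39519421, coordinates in GRCm38.p6) measured 11.7, 9.65 and 7.98 FPKM in mock 1 to 3, against 5.80, 9.85 and 7.13 FPKM in irradiated 1 to 3. Irradiated 1 and 3 lay below all mock libraries, and irradiated 2 lay between mock 1 and mock 2. Its log2 change was -0.36 (SE 0.23, 95% interval -0.87 to 0.16, limma adjusted p = 0.35). It was -0.19 without irradiated 1, -0.23 without mock 1 and -0.55 without irradiated 2, and passed in none of these.

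Nr3c2 (chromosome 8, 76898083 to 77245012) measured 4.76, 4.19 and 4.07 FPKM in mock 1 to 3, against 4.02, 7.85 and 10.5 FPKM in irradiated 1 to 3. The mock libraries were close together, irradiated 2 and 3 were well above them, and irradiated 1 was just below the lowest. The log2 change was 0.63 (SE 0.30, 95% interval -0.06 to 1.31, limma adjusted p = 0.23). Without irradiated 1 it was 0.99 and passed (limma adjusted p = 0.018), and without irradiated 3 it was 0.35 (limma adjusted p = 0.56). So the call on Nr3c2 rested on which irradiated library was kept.

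Set against each other within a library, the receptors separated the groups. The ratio of Nr3c2 to Nr3c1 ran at 0.408, 0.435 and 0.510 in mock 1 to 3, against 0.694, 0.796 and 1.47 in irradiated 1 to 3. All irradiated libraries had a higher ratio than all mock libraries, and only in irradiated 3 was there more Nr3c2 than Nr3c1 per length. The group means were 0.451 ± 0.053 and 0.987 ± 0.422 (SD, n = 3 each, exact two-sided permutation p = 0.1, the smallest this design allows, and 0.15 after Benjamini-Hochberg adjustment over 3 ratios). The log2 difference was 1.06, and it ranged from 0.73 without irradiated 3 to 1.27 without irradiated 1. The ratios were chosen after the genes' values had been seen.

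In brain, Nr3c2 is known for its high level in hippocampal neurons, whereas Nr3c1 is found in most cell types. A list of 10 hippocampal neuron markers, all in the table, summed to between 32.9 and 50.4 FPKM in mock and between 128 and 205 FPKM in irradiated libraries, and 7 of the 10 were called higher. Irradiated 1 to 3 summed to 128, 137 and 205 FPKM on that list, with Nr3c2 at 4.02, 7.85 and 10.5 FPKM. Irradiated 1 thus had the lowest Nr3c2 of all libraries and the lowest of the irradiated sums, which was above all mock sums. Cerebellar neuron markers went the other way, from between 1062 and 1515 FPKM in mock to sums between 80.4 and 117 FPKM in irradiated libraries (11 of 12 called lower). None had a log2 change above 0. Gabra6 was at 73.8, 127 and 52.9 FPKM in mock 1 to 3, against 1.39, 0 and 0.020 FPKM in irradiated 1 to 3. Pcp2 was at 478, 535 and 489 FPKM, against 22.2, 1.78 and 2.51 FPKM. Calb1 held 37.5, 35.9 and 54.2 FPKM of the irradiated sums. Regional makeup and irradiation therefore cannot be told apart for the receptors, nor for the genes that follow. In bulk tissue, fewer cells of a type and less RNA per cell cannot be told apart either.

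Transcript length also moved with individual libraries. Among 1999 tested genes with a longest transcript of 6000 nt or more, the median deviation from the mean of the 6 libraries was -0.39 (log2) in irradiated 1 and 0.24 in mock 1. Among 3060 genes under 2000 nt it was 0.24 in irradiated 1 and -0.21 in mock 1. Nr3c1 (6436 nt) and Nr3c2 (5916 nt) have long transcripts, and Ddit4 (1755 nt), Mt1 (1085 nt) and Mt2 (511 nt) short ones. With each library corrected for length by a lowess curve, an alternative added after the data were seen, the log2 change of Nr3c1 was -0.22 and that of Nr3c2 was 0.75 (limma adjusted p = 0.40 and 0.083). The same correction took Mt1 to 0.20 and Mt2 to 0.14.

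Fkbp5 encodes FKBP51, a co-chaperone that holds the glucocorticoid receptor in a state of low affinity and, being induced by it, closes a short feedback loop. Fkbp5 (chromosome 17, 28398753 to 28486149) had the smallest p of the 10. It was at 9.07, 16.3 and 20.5 FPKM in mock 1 to 3, against 21.8, 25.6 and 29.5 FPKM in irradiated 1 to 3. All irradiated libraries were higher than all mock libraries, by a narrow margin between mock 3 and irradiated 1, and mock 1 stood apart at the low end. Means were 15.3 ± 5.76 and 25.6 ± 3.84 FPKM (SD, n = 3), and the log2 change was 0.79 (SE 0.28, 95% interval 0.15 to 1.43, limma adjusted p = 0.12). Without mock 1 it was 0.47 (limma adjusted p = 0.29), and without mock 3 it was 1.03 (limma adjusted p = 0.078).

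FKBP52, the product of Fkbp4, competes with FKBP51 on the receptor complex and favours hormone binding. Fkbp4 was at 116, 143 and 125 FPKM in mock 1 to 3, against 124, 104.5 and 82.2 FPKM in irradiated 1 to 3, which overlapped (log2 change -0.32, SE 0.20, limma adjusted p = 0.34). Without irradiated 3 the change of Fkbp4 was -0.16. The ratio of Fkbp5 to Fkbp4 ran at 0.078, 0.114 and 0.164 in mock 1 to 3, against 0.176, 0.244 and 0.359 in irradiated 1 to 3. These groups did not overlap (exact two-sided permutation p = 0.1, adjusted 0.15 over 3 ratios), and the log2 difference of 1.14 ranged from 0.87 without mock 1 or without irradiated 3 to 1.40 without mock 3.

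Ddit4 encodes REDD1, which restrains mTORC1 under stress hormone, low oxygen or DNA damage. Ddit4 (chromosome 10, 59949675 to 59951770) measured 39.3, 57.8 and 53.8 FPKM in mock 1 to 3, against 58.6, 76.5 and 90.7 FPKM in irradiated 1 to 3. The groups were apart by less than 1 FPKM, between mock 2 and irradiated 1. The log2 change was 0.57 (SE 0.22, 95% interval 0.07 to 1.07, limma adjusted p = 0.15). It passed when libraries were weighted by their quality (0.75, limma adjusted p = 0.045), and was 0.41 without mock 1 (limma adjusted p = 0.39).

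Sgk1 encodes a kinase that regulates ion channels and transporters and is a target of both receptors. Sgk1 (chromosome 10, 21882184 to 21999903) measured 23.9, 67.1 and 76.5 FPKM in mock 1 to 3, against 86.5, 88.9 and 66.4 FPKM in irradiated 1 to 3. Mock 1 held less than any other library, and mock 2 and 3 lay between irradiated 3 and irradiated 1. The log2 change was 0.68 (SE 0.40, 95% interval -0.22 to 1.58, limma adjusted p = 0.32). It was 0.16 without mock 1 (limma adjusted p = 0.73), so most of the difference came from that library.

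Sgk1 was the only member whose promoter windows held the full palindromic response element of the receptors, the hexamer AGAACA followed after 3 bases by its reverse complement, which reads alike on both strands. RefSeq (GRCm38.p6) gave windows of 300 bases, from 250 before to 50 after a transcript start, for 8 of the 10 genes and not for Nr3c1 and Zbtb16. Of 32817 such windows of all genes, 3 held the palindrome (0.00914%), and 1 of the 6 windows of Sgk1 was among them. It is shown because it carries that element, on the plus strand at chr10:21993640-21993939, with each AGAACA hexamer or its reverse complement in capitals. The palindrome begins at position 62 of the window.
Sgk1: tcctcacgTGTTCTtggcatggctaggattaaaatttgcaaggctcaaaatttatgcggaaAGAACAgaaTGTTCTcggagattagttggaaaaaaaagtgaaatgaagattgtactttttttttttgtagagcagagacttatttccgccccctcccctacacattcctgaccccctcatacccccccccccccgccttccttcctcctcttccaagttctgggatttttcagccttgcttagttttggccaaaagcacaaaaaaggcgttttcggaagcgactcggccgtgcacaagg
The hexamer AGAACA alone, on either strand, was in 19.0% of all windows. A match of letters is a description and shows no binding, and the deposited table has 1 value for the gene and none for the separate starts of Sgk1.

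Tsc22d3 encodes GILZ, a leucine zipper protein through which glucocorticoids restrain inflammatory signalling. Tsc22d3 (chromosome X, 140539528 to 140600522) measured 60.1, 92.5 and 78.6 FPKM in mock 1 to 3, against 101.6, 91.4 and 64.04 FPKM in irradiated 1 to 3. The highest and the next to lowest of the 6 values were both irradiated, so the groups overlapped almost fully. The log2 change of 0.15 (SE 0.23, 95% interval -0.38 to 0.68, limma adjusted p = 0.72) turned to -0.02 without mock 1 and to -0.03 after quantile normalization, and was 0.34 without irradiated 3.

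Zbtb16 encodes PLZF, a zinc finger repressor that glucocorticoids induce strongly in many cells. Zbtb16 (chromosome 9, 48651797 to 48836225) measured 4.75, 6.38 and 5.56 FPKM in mock 1 to 3, against 2.43, 9.60 and 7.91 FPKM in irradiated 1 to 3. Irradiated 1 was the lowest of the 6 libraries, while irradiated 2 and 3 were the highest, so the irradiated group enclosed the mock group. The log2 change was 0.06 (SE 0.41, 95% interval -0.88 to 1.01, limma adjusted p = 0.94). It was 0.61 without irradiated 1 (limma adjusted p = 0.080) and -0.28 without irradiated 2 (limma adjusted p = 0.68). As for Nr3c2, irradiated 1 was the library that differed from its group.

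Pdk4 encodes a kinase that shuts pyruvate dehydrogenase and so spares glucose. Pdk4 (chromosome 6, 5483351 to 5496278) measured 3.03, 4.81 and 5.20 FPKM in mock 1 to 3, against 3.67, 5.42 and 7.87 FPKM in irradiated 1 to 3. Irradiated 2 and 3 were above all mock libraries and irradiated 1 was below mock 2. The log2 change was 0.32 (SE 0.29, 95% interval -0.34 to 0.97, limma adjusted p = 0.52), and without irradiated 3 it was 0.07 (limma adjusted p = 0.92). It was 0.10 without mock 1 and 0.57 without irradiated 1, neither of which passed.

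Mt1 and Mt2 encode metallothioneins, small cysteine-rich proteins that bind zinc and copper, made in brain mainly by astrocytes and induced by glucocorticoids, metals and oxidative stress. The genes are neighbours on chromosome 8 (Mt2 at 94172618 to 94173567, Mt1 at 94178883 to 94180327). Mt1 was at 927, 830.1 and 1404 FPKM in mock 1 to 3, against 1478, 1030.4 and 1493 FPKM in irradiated 1 to 3. Mt2 was at 562, 889 and 966 FPKM in mock 1 to 3, against 1138, 789 and 1154 FPKM in irradiated 1 to 3. For both genes irradiated 1 and 3 were above every mock library, while irradiated 2 was within the mock range.

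The log2 change was 0.36 for Mt1 (SE 0.28, 95% interval -0.29 to 1.01, limma adjusted p = 0.46) and 0.37 for Mt2 (SE 0.28, 95% interval -0.28 to 1.01, limma adjusted p = 0.44). After quantile normalization they were 0.04 and 0.01. Single libraries moved them too: Mt1 was 0.20 without mock 2 and 0.58 without mock 3, and Mt2 was 0.13 without mock 1. The ratio of Mt1 to Mt2 was 1.30, 1.31 and 1.29 in irradiated libraries and 1.65, 0.934 and 1.45 in mock libraries, so the pair kept 1 proportion in the irradiated brains and not in the mock brains (group means 1.35 ± 0.37 and 1.30 ± 0.0059, SD, n = 3; exact permutation p = 1 for the mean log2 ratio, adjusted 1 over 3 ratios). Whether the spread of the ratio differed between groups was not tested.

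Their promoter windows are shown because the pair shares elements of the metal-responsive transcription factor MTF1, a regulator that is independent of the corticosteroid receptors. Both windows are on the plus strand, Mt1 at chr8:94178839-94179138 and Mt2 at chr8:94172368-94172667, with every TGCACNC or TGCGCNC, on either strand, in capitals.
Mt1: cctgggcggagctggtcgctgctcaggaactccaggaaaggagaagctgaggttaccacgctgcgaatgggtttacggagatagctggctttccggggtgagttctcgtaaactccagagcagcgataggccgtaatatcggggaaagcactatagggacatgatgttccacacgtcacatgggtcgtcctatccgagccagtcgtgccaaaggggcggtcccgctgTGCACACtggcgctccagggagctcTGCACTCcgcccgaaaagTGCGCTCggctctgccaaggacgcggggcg
Mt2: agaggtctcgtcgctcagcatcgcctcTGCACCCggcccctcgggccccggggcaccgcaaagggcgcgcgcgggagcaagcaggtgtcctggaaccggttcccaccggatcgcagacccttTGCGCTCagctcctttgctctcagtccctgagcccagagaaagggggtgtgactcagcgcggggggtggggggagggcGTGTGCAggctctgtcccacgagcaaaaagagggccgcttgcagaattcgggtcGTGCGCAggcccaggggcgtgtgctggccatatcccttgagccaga
Mt1 had 3 matches and Mt2 had 4. Of all 32817 windows, 1.97% had 3 or more and 0.518% had 4 or more. Neither window held an AGAACA hexamer on either strand.

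Other genes around the metallothioneins were not called with all 6 libraries. Mt3, the metallothionein of neurons and astrocytes that metals induce little, was at 1360, 1003 and 2110.3 FPKM in mock 1 to 3, against 1991, 1640.1 and 2544 FPKM in irradiated 1 to 3 (log2 change 0.51, SE 0.33, limma adjusted p = 0.37). Of 7 tested genes of zinc transport, metal sensing and antioxidant defence, 0 were called in limma and 0 had an unadjusted p under 0.05. The smallest p values among them belonged to the zinc or manganese transporters Slc30a10 (log2 change 0.47, limma adjusted p = 0.20) and Slc39a10 (0.50, limma adjusted p = 0.35), and to Gclc, an enzyme of glutathione synthesis (-0.27, limma adjusted p = 0.37). Slc39a10 was called without irradiated 1 (0.87, limma adjusted p = 0.036) and was 0.27 without irradiated 3. Without mock 2, Mt3 was at 0.26, and without irradiated 1, Gclc was at -0.13. Astrocyte markers, 12 in number, summed to between 1707 and 1952 FPKM in mock and between 1411 and 1600.4 FPKM in irradiated libraries. All irradiated libraries were below all mock libraries on that sum. Aldoc held much of it, at 819, 873 and 906 FPKM in mock 1 to 3, against 635, 529 and 466 FPKM in irradiated 1 to 3. By gene, 1 of the 12 was called lower (Aqp4), 4 had a log2 change above 0, and the median was -0.16. The part of astrocytes in the result was not tested.

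Seen by library, mock 1 stood apart from the other 5 for the hormone-induced genes. It was the lowest library for 6 of the 8 (75%), against 16.1% of all tested genes. Irradiated 3 was the highest library for 5 of the 8 (62.5%), against 24.7% of all tested genes. The median deviation of the 8 genes from their own means was -0.60, 0.00 and 0.10 (log2) in mock 1 to 3 and 0.26, 0.26 and 0.41 in irradiated 1 to 3. So mock 2 and mock 3 lay closer to the irradiated libraries than to mock 1.

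**Figure D2:**
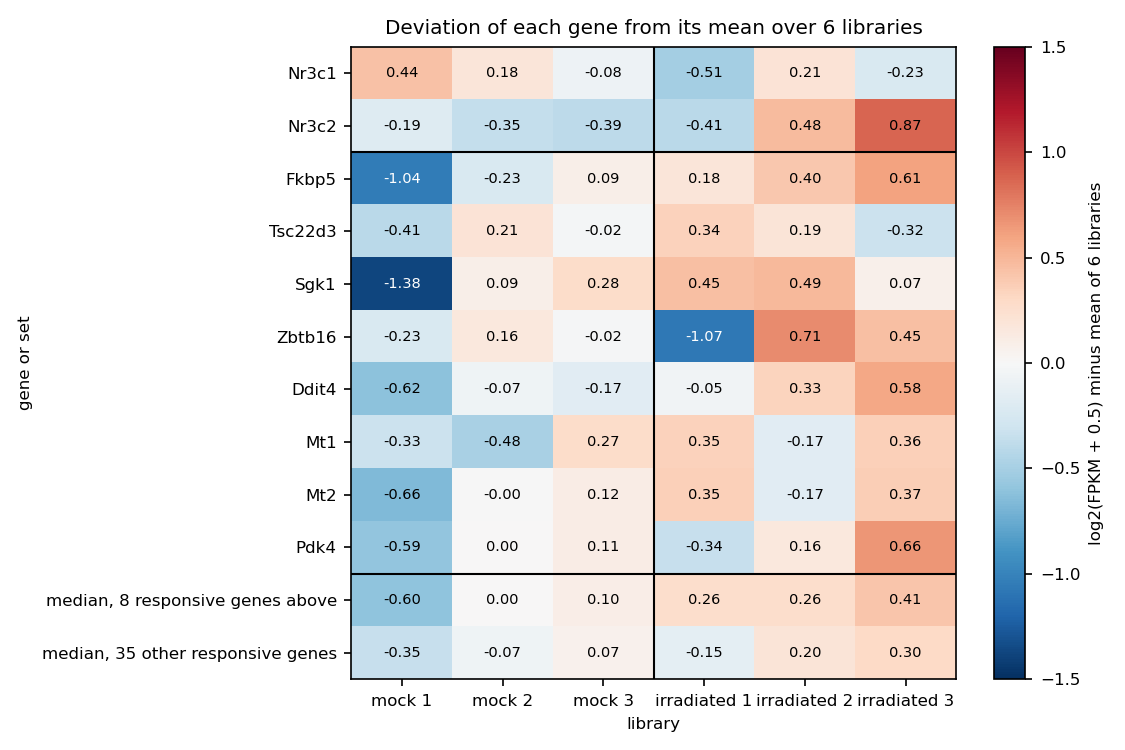
Each cell gives log2(FPKM + 0.5) of a gene (rows) in a library (columns) minus its mean over the 6 libraries, with red above and blue below. The bottom rows give the median of the 8 responsive genes and of 35 other glucocorticoid-responsive genes. Mock 1 is blue for all 8 responsive genes, and irradiated 1 is blue for both receptors, Zbtb16, Ddit4 and Pdk4.

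All 8 responsive genes had a log2 change above 0, with a median of 0.36, where 48.2% of all tested genes were above 0 and their median was -0.02. This count is a description, because the genes answer to common signals and are not independent. Without mock 1, 6 of the 8 were above 0 and the median was 0.14. Leaving out any other single library gave 7 or 8 of 8 and medians from 0.31 to 0.59.

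**Figure D3:**
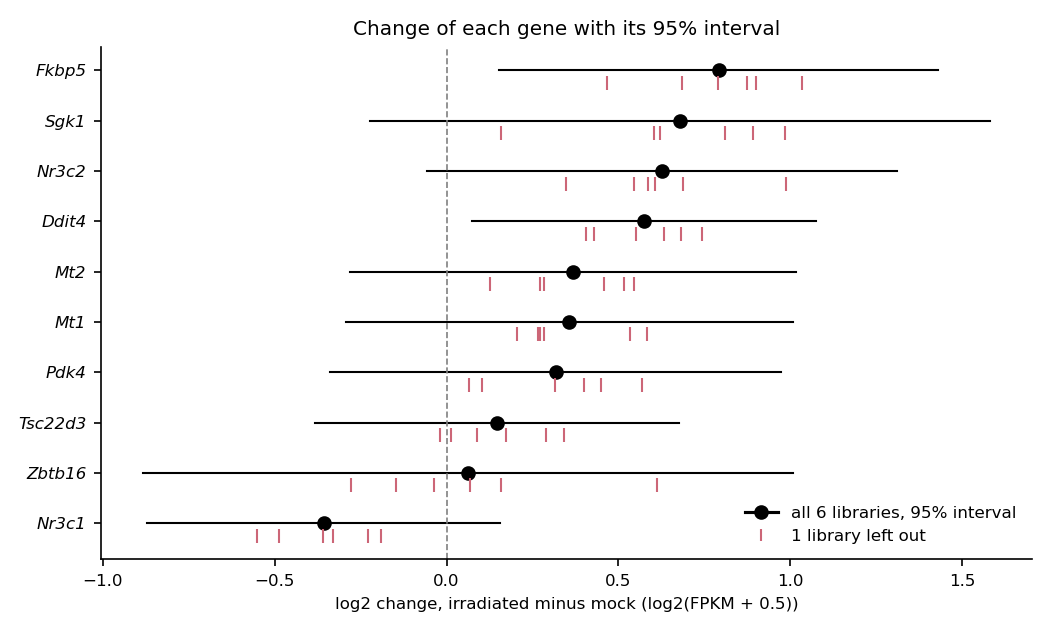
Log2 change (irradiated minus mock, horizontal axis) of the 10 genes with 95% intervals from limma, ordered by size. Red ticks show the change with each library left out in turn. Only the intervals of Fkbp5 and Ddit4 exclude 0 before adjustment, and the lowest ticks of Sgk1 and Fkbp5 are those without mock 1.

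A wider list of 35 other genes known to respond to glucocorticoids had 1 called higher and 0 lower (3.48% and 4.24% of all tested genes). An unadjusted p under 0.05 was met by 7 higher and 2 lower genes (11.7% and 13.9% of all tested genes). The median log2 change of the list was 0.24, and 22 of 35 (62.9%) were above 0, against -0.02 and 48.2% for all tested genes. Mock 1 was the lowest library for 16 of these 35 genes (45.7%), against 16.1% of all tested genes. Irradiated 3 was the highest for 16 (45.7%), against 24.7% of all tested genes. The list was drawn up with earlier results of these data known.

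Per1, a clock gene with response elements for the glucocorticoid receptor, was the 1 that rose. It was at 10.2, 8.71 and 11.5 FPKM in mock 1 to 3, against 16.6, 16.6 and 18.2 FPKM in irradiated 1 to 3, well apart (log2 change 0.74, SE 0.16, limma adjusted p = 0.030). The call was lost without mock 1, mock 2, mock 3, irradiated 2 or irradiated 3 (limma adjusted p from 0.0503 to 0.12), while the change stayed between 0.64 and 0.83. Since Per1 also follows the hour of day, other clock genes are given beside it. Of 16 clock genes only Per1 was called (3.48% of all tested genes were called higher and 4.24% lower). An unadjusted p under 0.05 was met by 5 higher and 2 lower clock genes (11.7% and 13.9% of all tested genes). Of the 16, 12 had a log2 change above 0 (48.2% of all tested genes). All irradiated libraries were above all mock libraries for 6 and below for 2 (13.7% and 17.7% of all tested genes). The list summed to between 296 and 304 FPKM in mock and between 348 and 382 FPKM in irradiated libraries. Tef showed a log2 change of 0.58 (limma adjusted p = 0.059), Nr1d2 one of -0.70 (limma adjusted p = 0.084), and Dbp, whose level swings widely over the day, one of 0.17 (limma adjusted p = 0.60; 0.02 without mock 1). The hour of collection is not in the labels, and its part in the result was not tested.

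Other well-known targets differed in direction, and none of those named here was called. Klf9, a zinc finger factor induced by corticosterone in hippocampus, was at 46.2, 49.2 and 47.6 FPKM in mock 1 to 3, against 25.3, 49.5 and 59.1 FPKM in irradiated 1 to 3 (log2 change -0.18, limma adjusted p = 0.72), with irradiated 1 again apart from its group. Dusp1, a phosphatase that switches off MAP kinases, showed a log2 change of -0.08 (limma adjusted p = 0.85). Cdkn1a, which encodes p21 and answers to p53 as well, averaged 23.5 ± 4.33 FPKM in the mock group, against 38.0 ± 8.49 FPKM after irradiation (SD, n = 3, limma adjusted p = 0.087), with all irradiated libraries above all mock libraries. Gpd1, a glycerol phosphate dehydrogenase of oligodendrocytes that glucocorticoids induce, averaged 75.1 ± 4.70 FPKM in the mock group, against 52.9 ± 5.03 FPKM after irradiation (limma adjusted p = 0.083), and passed after quantile normalization (limma adjusted p = 0.020) and with the length correction (0.033).

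Oligodendrocytes express several of the responsive genes, and their markers differed between the groups. The 12 mature oligodendrocyte markers summed to between 5442 and 6536 FPKM in mock and between 2527 and 4464 FPKM in irradiated libraries (4 called lower), and the 8 precursor markers to between 196 and 233 FPKM and between 109 and 134 FPKM (5 called lower). Microglial markers, 10 in all, summed to 219 to 269 FPKM and 274 to 466 FPKM (1 called higher). The 10 endothelial markers were at 119 to 153 and 98.03 to 118 FPKM (no call in limma, and an unadjusted p under 0.05 for 3, all lower). Telencephalic neuron markers, 8 in all, were at 191 to 368 and 481 to 913 FPKM (2 called higher and 1 lower). The sums of choroid plexus, meningeal, erythroid, mural cell and pituitary markers overlapped between the groups. Within them, 2 of 8 choroid plexus markers were called lower, Kcne2 and Enpp2, and the median log2 change of that list was -0.65. Dcn, 1 of 8 meningeal markers, was called higher, and limma called 0 of the tested erythroid, mural cell and pituitary markers, where an unadjusted p under 0.05 was met by 0 erythroid, 1 mural cell and 1 pituitary marker, both lower. Fshb, of the pituitary, was the only marker of any list at 0 in every library. The part of these cells in the results was not tested.

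Brain cells also set their own hormone exposure. Hsd11b1, which regenerates active corticosterone inside cells, was at 30.5, 56.4 and 35.6 FPKM in mock 1 to 3, against 26.1, 20.8 and 17.5 FPKM in irradiated 1 to 3. All irradiated libraries were below all mock libraries, and mock 2 was far above the rest. The log2 change of -0.88 (SE 0.25, limma adjusted p = 0.069) did not pass, was -0.63 without mock 2 (limma adjusted p = 0.17) and passed without irradiated 1 (-1.03, limma adjusted p = 0.047). H6pd, which supplies that enzyme with NADPH, showed a log2 change of -0.47 (limma adjusted p = 0.19). Abcb1a, a drug pump of brain endothelium that exports some glucocorticoids, showed one of -0.74 (limma adjusted p = 0.22). Without irradiated 1 the change of Abcb1a was -0.29. Of the 14 genes of steroid synthesis, conversion and transport, 8 were tested and 0 were called in limma (7.72% of all tested genes were called). Among them 0 higher and 2 lower genes met an unadjusted p under 0.05 (11.7% and 13.9% of all tested genes). Hsd11b2, the inactivating enzyme, did not reach the filter, with 0.096, 0.145 and 0.166 FPKM in mock 1 to 3, against 0.087, 0 and 0.049 FPKM in irradiated 1 to 3, where 0 is the value listed.

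The chaperones and coregulators of the receptors, 20 genes, had 0 calls in limma (7.72% of all tested genes) and a median log2 change of 0.07. Among them 2 higher and 1 lower gene met an unadjusted p under 0.05 (11.7% and 13.9% of all tested genes). Hsp90ab1, the chaperone that keeps the receptors ready for hormone, was at 485, 473 and 668 FPKM in mock 1 to 3, against 913, 704 and 964 FPKM in irradiated 1 to 3, which did not overlap (log2 change 0.67, SE 0.24, limma adjusted p = 0.12). Dnajb1, a heat shock co-chaperone, showed a log2 change of 0.47 (limma adjusted p = 0.079), and Ppargc1a, a coactivator of nuclear receptors, one of -0.54 (limma adjusted p = 0.096). After quantile normalization the change of Hsp90ab1 was 0.35.

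Relatives of the 10 genes were not called either. The 13 tested paralogs had 0 calls in limma (7.72% of all tested genes) and a median log2 change of 0.02. Among them 2 higher and 2 lower ones met an unadjusted p under 0.05 (11.7% and 13.9% of all tested genes). Sgk2 was at 1.36, 1.65 and 1.60 FPKM in mock 1 to 3, against 1.03, 0.499 and 0.563 FPKM in irradiated 1 to 3 (log2 change -0.79, SE 0.21, limma adjusted p = 0.059), with all irradiated libraries below all mock libraries. It passed with library weights (-0.87), without irradiated 1 (-0.98) and with the length correction (-0.80). Ddit4l showed a log2 change of 0.73 (limma adjusted p = 0.13; 0.48 without mock 2) and Tsc22d2 one of -0.45 (limma adjusted p = 0.14).

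Among the lists other than cell markers, peptides and receptors of the stress axis had the most calls. Of 9 tested, 2 were called higher and 2 lower, against 3.48% and 4.24% of all genes. Crh, the releasing hormone at the head of the axis, fell from 11.6, 11.9 and 13.8 FPKM in mock to 6.83, 3.73 and 4.29 FPKM in irradiated libraries (log2 change -1.28, SE 0.22, limma adjusted p = 0.013). It was not called without irradiated 3 (limma adjusted p = 0.056). Crhr1, its main receptor and chosen here after its values were seen, fell from 31.0, 26.3 and 25.1 to 18.3, 14.7 and 15.9 FPKM (log2 change -0.74, SE 0.16, limma adjusted p = 0.031), and was not called without mock 1, mock 2, mock 3, irradiated 2 or irradiated 3 (limma adjusted p up to 0.12).

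Ucn, urocortin, a peptide of the same family that is concentrated in the Edinger-Westphal nucleus of the midbrain, rose from 0.47, 2.66 and 1.77 FPKM to 20.1, 25.2 and 15.9 FPKM (log2 change 3.43, SE 0.40, limma adjusted p = 0.0021). Its call held with each library left out. Crhbp, which binds and masks these peptides, rose from 7.98, 4.47 and 8.88 FPKM to 17.1, 14.1 and 23.3 FPKM (log2 change 1.32, SE 0.28, limma adjusted p = 0.027), and was not called without mock 1, mock 2 or irradiated 3 (limma adjusted p up to 0.10). The sums of cerebellar and hippocampal markers given above were apart between the groups in the same libraries. Regional makeup and irradiation therefore cannot be told apart for these 4 genes either.

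**Figure D4:**
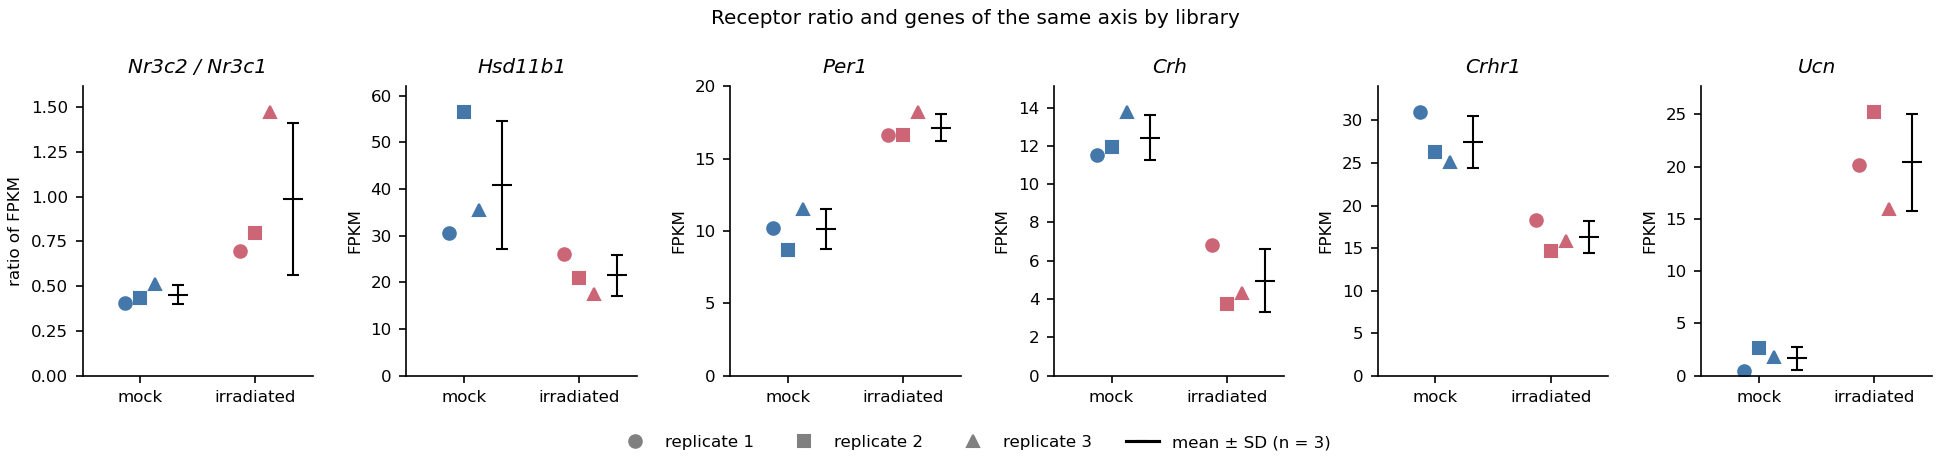
The ratio of Nr3c2 to Nr3c1 (left, ratio of FPKM) and FPKM of Hsd11b1, Per1, Crh, Crhr1 and Ucn (linear axes from 0) in mock and irradiated libraries. Symbols mark replicates and black bars the mean ± SD of 3 libraries. In every panel the groups do not overlap, and Per1, Crh, Crhr1 and Ucn were called.

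Immediate early genes, which neuronal activity and handling before death induce within minutes, had 0 calls among 10 in limma (7.72% of all tested genes). Among the 10, 2 higher and 0 lower genes met an unadjusted p under 0.05 (11.7% and 13.9% of all tested genes). Junb showed a log2 change of 1.30 (limma adjusted p = 0.056), Fosb one of 1.20 (limma adjusted p = 0.075) and Egr4 one of 1.48 (limma adjusted p = 0.22). Junb passed in 7 of 17 alternatives, among them median centring (limma adjusted p = 0.039), the replicate block (0.046), library weights (0.025) and leaving out mock 3 (0.030) or irradiated 1 (0.031). Fosb passed after quantile normalization (limma adjusted p = 0.046). Without mock 2 the changes were 0.76 for Fosb and 0.80 for Egr4. Junb was at 15.7, 9.96 and 25.5 FPKM in mock 1 to 3, against 28.3, 41.6 and 54.0 FPKM in irradiated 1 to 3, and so was lowest in mock 2, not in mock 1. The sums of the list overlapped between the groups, from 57.04 to 162 and from 144 to 197 FPKM.

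The genes whose pattern over the 6 libraries was most like a member's were found by the root mean square difference between mean-centred log2(FPKM + 0.5) profiles. For Fkbp5 these were Arl4d (0.14) and Nrros (0.16), and 9 genes in all lay within 0.2. For Ddit4 they were Tusc1 (0.10) and Klf15 (0.11), with 113 genes within 0.2. Arl4d and Klf15 are both on the list of 35 other glucocorticoid-responsive genes. Nr3c2 was nearest to the unnamed locus LOC432842 (0.06) and Pgm2l1 (0.07), with 78 genes within 0.2. Nr3c1 was nearest to Atp7a (0.02) and Hipk1 (0.03), and 1105 genes lay within 0.2, so its profile was a common one. With 6 libraries such likeness is a description only.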

How the data were processed

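RNA was measured in 6 libraries, 3 per group. Per the labels' protocols, total RNA (2 μg) was depleted of ribosomal RNA, made into stranded libraries and read as single ends of 75 nt. The authors deposited FPKM in 1 table with a column per library. The submitters' processing notes name TopHat, Cufflinks, Cuffdiff and mm10, with versions, settings, annotation and scaling totals not given in the sources used here. After 1 leftover header line was dropped, the columns summed to 472450 to 625782 FPKM. The low values held no common step (at most 1.36% of genes shared a ratio between libraries), so whole reads could not be recovered, and depth is known only as the approximate read number in the labels.

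Tested genes averaged 0.5 FPKM or more. limma 3.58.1 (R 4.3.3) was fitted to log2(FPKM + 0.5) by group, with a trend of variance on level, and two-sided p-values were adjusted by Benjamini-Hochberg over all tested genes and called at 0.05. This scale understates changes of low genes. The members and lists were chosen with earlier results of these data known. Genes named besides the members were the 3 of each list other than cell markers with the smallest p, and a set of genes of the hormone axis named whatever their result. Coordinates and promoter windows came from RefSeq on GRCm38.p6, and lengths, for 96.3% of tested genes, from GENCODE on the same build. Alternatives changed the pseudocount, the filter, the scaling (medians or quantiles), the variance model (robust, weighted or blocked by replicate number), the libraries kept and the threshold (0.1). A length correction (lowess, span 0.3) was chosen after seeing the data.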

Additional observations from a re-analysis of the deposited data

How the results depend on the processing

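Each of the 10 genes was refitted under 17 alternatives, and 162 of 170 fits kept both the direction and the side of the threshold. Passing were Nr3c2 without irradiated 1 and without mock 2 and irradiated 1 together, and Ddit4 with library weights, so the count of members called higher was 1 in each of these settings (0 to 1 with a single library left out), and the count called lower was 0 in all. The direction turned for Tsc22d3 with quantile normalization (-0.028) and without mock 1 (-0.019), and for Zbtb16 without mock 1 (-0.037), irradiated 2 (-0.28) or irradiated 3 (-0.15). For 30 other named genes, 460 of 510 fits kept both, 25 gained a call, 18 lost one and 7 turned. Calls were gained in at least 1 alternative by Junb, Fosb, Egr4, Hsd11b1, Sgk2, Gpd1, Tef, Nr1d2, Dnajb1 and Slc39a10, and lost by Per1, Crhr1, Crhbp and Crh. The direction turned for Klf9 with library weights (0.038), without irradiated 1 (0.18) and without mock 2 and irradiated 1 together (0.20), and for Dusp1 with library weights (0.026), without mock 3 (0.070), without irradiated 1 (0.084) and without mock 2 and irradiated 1 together (0.040). Their highest or lowest value with a single library left out was 0.34 for Tsc22d3, 0.61 for Zbtb16, -0.42 for Klf9 and -0.24 for Dusp1. The cause was not tested. Over all genes, calls were 508 higher and 618 lower as reported, 863 and 976 with library weights, 1002 and 1149 at an adjusted p under 0.1, and 825 and 809 with the length correction. With a single library left out they ranged from 147 to 673 higher and from 254 to 695 lower. The counts moved by over 1.5 times without mock 1 (187 and 254), mock 2 (205 and 298), mock 3 (309 and 342) and irradiated 3 (147 and 260). Same-numbered libraries deviated from their group means with correlations of -0.33, 0.19 and 0.20, and mock 1 correlated best with irradiated 2 (0.23), so the numbers were not taken as pairs. With the replicate number as a block, 401 genes were higher and 394 lower, no member was called (Fkbp5 adjusted p = 0.077, Ddit4 0.097), and Per1 (0.057) and Crhr1 (0.051) were not called. With 3 libraries a group and 1 value per gene, the 95% intervals of the members are wide, and depth could not be read from the table.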
